A study of Mus musculus with 6 samples.

Results

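AP-1 is a family of transcription factors that bind DNA as pairs through a basic leucine zipper (bZIP) domain. The 10 members described here are *Fos*, *Fosb*, *Fosl1*, *Fosl2*, *Jun*, *Junb*, *Jund*, *Atf3*, *Maff* and *Batf*, of 17554 genes in the deposited table of corneal epithelial RNA. They were taken by gene symbol, and the set was chosen by the family together with its read counts and FPKM values in this same contrast of mutant and control samples. Their differences between the genotypes are therefore given as a description only. Of the 10 members, 9 passed the filter on low counts and were among the 12667 genes tested, and *Batf* was not. *Fosl1* passed that filter through the mutant samples only. In the annotation of the deposited table all 10 members were among 42 genes with a bZIP domain in Pfam, 9 of them with the common bZIP type and *Maff* with the Maf type.

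The study compared corneal epithelium in 3 samples from mutant mice, *Krt14-Cre; Rela f/f*, labelled Rela-/-, and 3 samples from control mice, labelled WT, all of strain C57BL/6 and 2 months old. The libraries are named mutant 1 to 3 and control 1 to 3 after the numbers in their labels. *Krt14-Cre* expresses Cre recombinase from the keratin 14 promoter, so that *Rela*, the gene of the NF-κB protein RelA, is removed from cells that have used this promoter and kept in the others. The sources used here do not state whether the control mice carried the floxed allele without Cre, or whether a library pooled several corneas. The methods call the samples of a group independent biological samples, and bulk RNA-seq gives 1 value per gene for the whole layer. Fewer cells of a type and less RNA per cell cannot be told apart in such data.

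Fos proteins pair with Jun proteins, whereas Jun proteins can also pair with each other, and the pair determines how strongly a target gene is driven. *Fos*, *Fosb*, *Jun*, *Junb* and *Atf3* are immediate early genes, which are transcribed within minutes of a growth factor, a stress or an injury from factors already present in the cell. In stratified epithelia such as the cornea and the skin, AP-1 acts in differentiation and in wound healing.

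*Rela* itself was measured at 36.47, 34.71 and 33.43 FPKM in controls 1 to 3 and at 4.93, 5.53 and 5.72 FPKM in mutants 1 to 3. It fell by 2.75 on the log2 scale (SE 0.0847, adjusted p = 5.5e-07, quasi-likelihood test of edgeR, Benjamini-Hochberg adjustment), so each library matched its label. Expected counts, the read counts that RSEM estimates per gene, summed to between 19492942 and 19733834 per library. A floor of 3 counts per library corresponds to 0.152 to 0.154 CPM, where CPM is the count scaled to the library total, and it covers counting error only. FPKM values are scaled by transcript length, and levels of different genes are compared in FPKM only. *Krt12*, the keratin of the differentiated corneal epithelium, and *Pax6*, a transcription factor of the eye, were present in all libraries, *Pax6* between 208.61 and 222.25 FPKM in the controls and between 185.5 and 202.28 FPKM in the mutants. The summed FPKM of 5 corneal epithelial markers was 43580 to 47660 in the controls and 40440 to 43810 in the mutants. Of these, *Krt14* rose (log2 fold change 3.32, adjusted p = 1.1e-05) and *Aldh3a1* fell (log2 fold change -0.25, adjusted p = 0.047, edgeR with Benjamini-Hochberg adjustment). The summed FPKM of 8 leukocyte markers was 20.88 to 28.87 in the controls and 255.8 to 1690 in the mutants, where *S100a8* and *S100a9*, which epithelia also make, passed the test and were highest in mutant 1. *Adgre1* and *Cd207* had at most 3 counts in each library. *Ptprc*, which defines leukocytes, was at 0.01 to 0.06 FPKM in the controls and 0.02 to 0.15 FPKM in the mutants. *Lyz2* had 0, 0 and 1 expected counts in the controls and 23.7, 13.0 and 3.79 in the mutants, and *Cd3e* overlapped between the groups. The sum of 6 stromal markers was 0.09 to 0.22 FPKM in the controls and 0.5 to 3.08 FPKM in the mutants, with *Kera* at no more than 3 counts, and that of 3 vascular markers 0.03 to 0.09 and 0.14 to 0.23 FPKM. The sum of 4 conjunctival markers was lower in the mutants, at 1074 to 1191 against 1362 to 1595 FPKM. Beside *Krt14*, *Aldh3a1*, *S100a8* and *S100a9*, the markers that passed the test were *Dcn* of the stroma, which rose, and *Krt13* of the conjunctiva, which fell. *Krt12*, *Krt5*, *Pax6*, *Cd68*, *Krt4* and *Krt19* did not pass, the other markers were not tested, and the corneal sums of the groups overlapped. *S100a8* and *Dcn* were under 10 counts in each control and entered the fit through the mutants. The part of these markers in the values of the AP-1 genes was not tested.

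The DNA before the transcription starts of the members was searched for AP-1 and related motifs, since *Jun* and *Fos* are textbook cases of genes whose own promoters carry sites for bZIP factors. RefSeq of GRCm38.p6 gave the 250 bases before a start for 9 members. The *Jun* promoter is shown because *Jun* had the highest fold among the abundant members, and the *Fos* promoter because *Fos* overlapped between the groups. Both are written 5′ to 3′ on the strand of the gene, ending at the base before the start, with the matches described next in capitals.
Jun, chr4:95052223-95052472, minus strand: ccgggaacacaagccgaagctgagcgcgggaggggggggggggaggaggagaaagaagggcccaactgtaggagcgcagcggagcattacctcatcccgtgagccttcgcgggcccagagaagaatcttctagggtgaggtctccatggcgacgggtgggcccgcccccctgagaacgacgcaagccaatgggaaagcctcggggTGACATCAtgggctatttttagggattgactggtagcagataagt
Fos, chr12:85473640-85473889, plus strand: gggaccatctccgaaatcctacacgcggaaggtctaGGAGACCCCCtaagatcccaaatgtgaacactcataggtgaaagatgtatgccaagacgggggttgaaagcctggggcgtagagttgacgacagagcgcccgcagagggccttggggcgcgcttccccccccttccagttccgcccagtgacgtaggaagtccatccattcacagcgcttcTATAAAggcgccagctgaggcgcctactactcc
The capitals in *Jun* mark TGACATCA, a variant of the cyclic AMP response element (CRE) that bZIP pairs also bind, at positions -45 to -38. The capitals in *Fos* mark a match to the κB motif, GGAGACCCCC, at -214 to -205, and the TATA letters TATAAA at -33 to -28.

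Across both strands of the promoters of the 9 members, the classic AP-1 site TGANTCA was not found, and 6.75% of 32851 mouse promoters of the same length held it. The CRE TGACGTCA, present in 1.55% of all promoters, was found before *Maff* at -29 to -22, and TGACATCA, present in 2.93%, was found before *Jun* and *Maff*. *Maff* has 3 listed starts, and its matches are counted from the start they precede. The shares are of promoters, whereas matches in the members are counted per gene, so they are not on the same scale. TATAAA was found in 12.4% of all promoters and, among the members, before *Fos*. The CArG box of serum response factor, found in 1.47% of promoters, had no match in a member within the bases searched. Sites further upstream, or with letters other than those searched, were not sought. A missing match therefore does not show that a gene lacks such a site. The κB motif was found in 3.9% of promoters and before 4 members, as GGAGACCCCC in *Fos*, GGGGACCCCC in *Fosb* at -188 to -179, GGGAGTCCCC in *Fosl2* at -182 to -173, where GGAGTCCCCC overlaps it from -181 to -172, and GGAGTTTCCC in *Maff* at -70 to -61. A match describes letters only, and binding at these places was not measured in these libraries. No promoter of *Junb*, *Jund*, *Atf3* or *Batf* held any of the 6 motifs in this window. For *Jund* the window precedes the RefSeq start at chr8:70697739. GENCODE starts *Jund* at chr8:70698949, and the bases just before that start were not searched.

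In the control epithelium *Junb* was the most abundant member, followed by *Fosl2*, *Jund*, *Fos*, *Jun*, *Maff*, *Fosb*, *Atf3*, *Batf* and *Fosl1*. Mean levels ran from 162.3 FPKM for *Junb* to 0.36 FPKM for *Atf3*, with *Batf* at 0.04 FPKM and *Fosl1* at 0 in each library. The ranges of neighbours in this order were separate except those of *Batf* and *Fosl1*. In the mutant epithelium *Jun* stood before *Jund* and *Fos*, and *Fosl1* before *Atf3*. There the ranges of *Jun* and *Jund*, of *Jund* and *Fos*, of *Fosb* and *Fosl1*, and of *Fosl1* and *Atf3* overlapped.

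**Figure D1:**
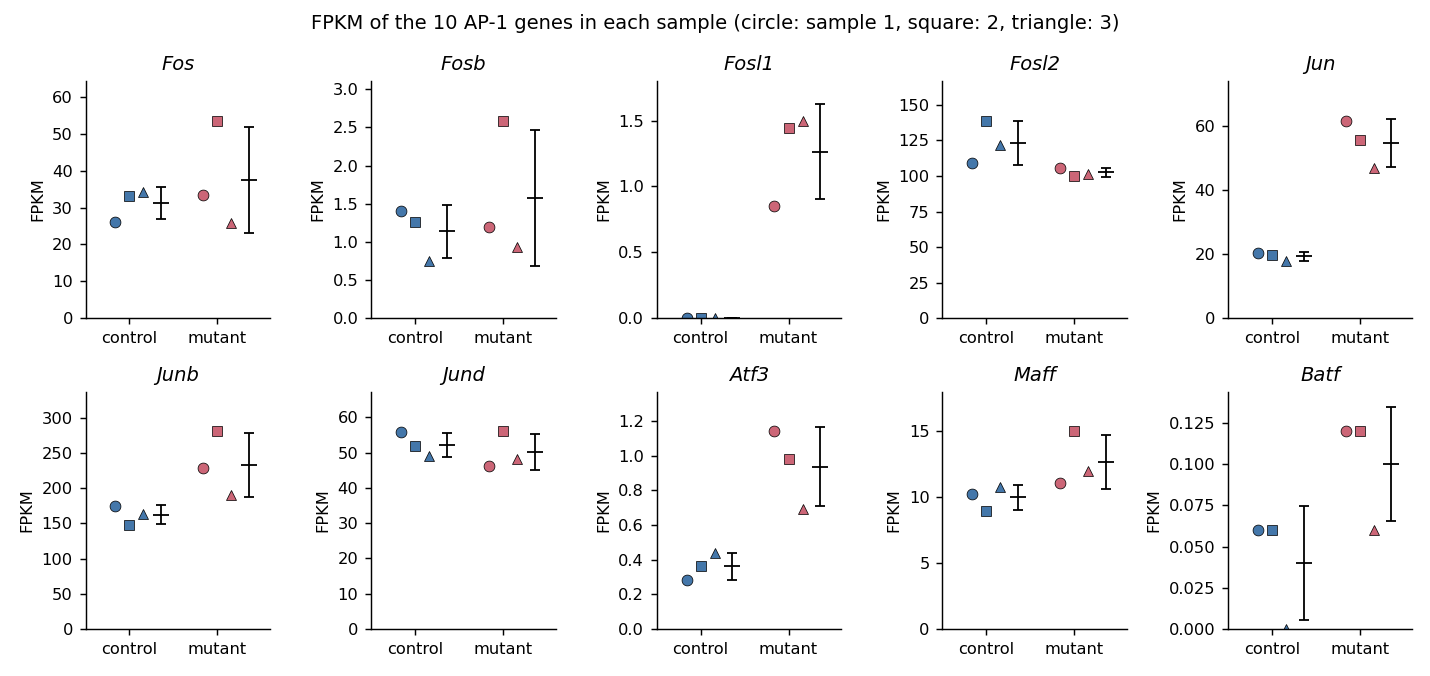
FPKM of the 10 AP-1 genes (vertical axes, each from 0 on its own scale) in the 3 control and 3 mutant libraries. Circles, squares and triangles stand for samples 1, 2 and 3, and the bars beside them for mean ± SD (n = 3). The 3 mutant points lie above the 3 control points for *Fosl1*, *Jun*, *Junb*, *Atf3* and *Maff*, and below them for *Fosl2*.

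Among the Jun proteins, which can activate transcription as pairs with Fos or with each other, *Jun* differed most between the genotypes. *Jun*, at chr4:95049036-95052222 on the minus strand, was at 20.36, 19.77 and 17.84 FPKM in the controls and at 61.78, 55.69 and 46.81 FPKM in the mutants. The groups were far apart, with mutant 1 the highest library and mutant 3 the lowest of the mutants. The means were 19.32 ± 1.32 and 54.76 ± 7.53 FPKM (SD, n = 3), and the log2 fold change was 1.5 (SE 0.11), a fold of 2.83. Leaving out each library in turn kept it between 1.40 and 1.61. In the deposited table the row of *Jun* spans 120.0 kb on the plus strand with 5 transcripts, where RefSeq gives 3.19 kb on the minus strand, so its counts may include reads of other transcripts in that span. Its FPKM and counts imply a transcript of 3203 bases.

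*Junb*, which can restrain *Jun* in some cells and acts as an activator in others, was at 174.83, 148.19 and 163.92 FPKM in the controls and 229.06, 281.17 and 189.91 FPKM in the mutants. All mutant libraries were above all control libraries, with mutant 2 the highest and mutant 3 closest to the controls. Means were 162.3 ± 13.4 and 233.4 ± 45.8 FPKM (SD, n = 3), and the log2 fold change was 0.52 (SE 0.14), or 1.44-fold. Without mutant 2 it was 0.36. *Jund*, the Jun protein that is present in most resting cells, was at 55.92, 51.84 and 49.14 FPKM in the controls and at 46.22, 56.08 and 48.25 FPKM in the mutants. The groups overlapped, and the log2 fold change was -0.06 (SE 0.091). Of the 1668 exon bases of *Jund* in the GENCODE annotation, 52.6% overlap an antisense gene, *Gm11175*, and the counting is not stated to use strand. The FPKM and counts of *Jund* imply a longer transcript of 2889 bases, so the share of the bases counted may differ. In GENCODE *Jun* shares 7.28% of its exon bases with the antisense gene *Junos*, and *Junb* 7.52% with *Prdx2*. *Junb* has 2301 exon bases there, against an implied transcript of 1834 bases, so its overlap may lie outside the bases counted.

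The makeup of the Jun family also differed between the libraries of the genotypes, in values that share the selection. The summed FPKM of *Jun*, *Junb* and *Jund* was 251.1, 219.8 and 230.9 in the controls and 337.1, 392.9 and 285.0 in the mutants. *Jun* made up 8.11%, 8.99% and 7.73% of this sum in the controls and 18.3%, 14.2% and 16.4% in the mutants, with no overlap. The share of *Jund* was 22.4% ± 1.2 in the controls and 15.0% ± 1.7 in the mutants (SD, n = 3), and that of *Junb*, at 69.3% ± 1.8 and 68.7% ± 2.5, overlapped. The ratio of *Jun* to *Jund* in FPKM was 0.364, 0.381 and 0.363 in the controls and 1.34, 0.993 and 0.97 in the mutants.

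**Figure D2:**
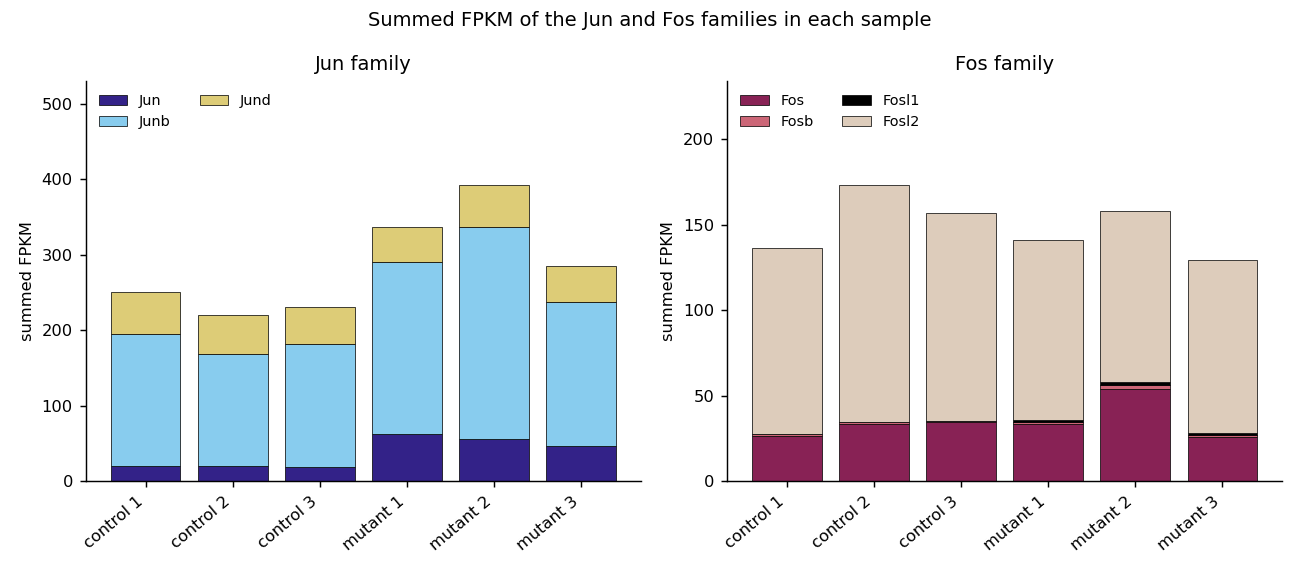
Summed FPKM (vertical axis) of the 3 Jun genes (left) and the 4 Fos genes (right) in each of the 6 libraries, stacked by gene. The Jun sum is between 219.8 and 251.1 in the controls and between 285.0 and 392.9 in the mutants, and the Fos sums of the groups overlap.

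The Fos proteins cannot pair with themselves and bind DNA as partners of Jun proteins. *Fosl2*, which encodes Fra-2 and lacks the strong activation domain of Fos, was their main transcript. It was at 108.82, 138.99 and 121.82 FPKM in the controls and at 105.81, 100.34 and 101.28 FPKM in the mutants. Each mutant library was below each control library, although control 1 and mutant 1 lay close together. Means were 123.2 ± 15.1 and 102.5 ± 2.92 FPKM (SD, n = 3), and the log2 fold change was -0.27 (SE 0.095).

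*Fos*, the classic immediate early gene, was at 26.17, 33.14 and 34.23 FPKM in the controls and at 33.36, 53.59 and 25.81 FPKM in the mutants. The groups overlapped, with mutant 2 the highest library and mutant 3 the lowest. The log2 fold change was 0.27 (SE 0.23), and without mutant 2 it was -0.08. *Fosb*, its close relative, was at 1.41, 1.26 and 0.75 FPKM in the controls and 1.2, 2.59 and 0.93 FPKM in the mutants. Here too the groups overlapped and mutant 2 was the highest, with a log2 fold change of 0.47 (SE 0.36) that became -0.08 without that library. The spread of *Fos* between libraries, as the coefficient of variation, was 14.0% in the controls and 38.2% in the mutants, and that of *Fosb* 30.3% and 56.6%.

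*Fosl1*, which encodes Fra-1, a Fos protein associated with migrating and wounded epithelium, was listed at 0 in each control library and at 0.85, 1.44 and 1.5 FPKM in the mutants. Its expected counts were 28.10, 47.80 and 50.29 in mutants 1 to 3, or 1.44, 2.44 and 2.55 CPM. Against the level of 3 counts in a control library, the mutant mean was at least 13.9-fold higher. *Fosl1* lies at chr19:5447698-5455938, 180.0 kb from *Rela* on the same chromosome. Of 8 tested genes between them, 2 were higher and 0 lower at an adjusted p under 0.05 (edgeR), against 7.82% and 5.42% of all genes tested. With a fold change of at least 2 and an adjusted p of at most 0.001, 1 was higher, against 1.31% of all genes tested. Whether this position bears on the values of *Fosl1* was not tested. Of the 2033 exon bases of *Fosl1* in GENCODE, 57.2% overlap *Ccdc85b* on the opposite strand. Of the 50-base windows of *Fosl1* there, the length of a read, 52.6% are also in *Ccdc85b* transcripts. The FPKM and counts of *Fosl1* imply a shorter transcript of 1698 bases, so the shares for the bases counted may differ. *Ccdc85b* had 161.88, 122.1 and 119.77 expected counts in the controls and 136.51, 159.12 and 208.23 in the mutants, a log2 fold change of 0.31 (SE 0.176, adjusted p = 0.28, edgeR with Benjamini-Hochberg adjustment). The sum of both genes was 161.88, 122.1 and 119.77 counts in the controls and 164.61, 206.92 and 258.52 in the mutants. Since the use of strand in counting is not stated, the division of reads from the shared bases between these genes is uncertain.

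The summed FPKM of the Fos family was 136.4, 173.4 and 156.8 in the controls and 141.2, 158.0 and 129.5 in the mutants, and the groups overlapped. *Fosl2* made up 79.8%, 80.2% and 77.7% of it in the controls and 74.9%, 63.5% and 78.2% in the mutants. *Fos* made up 20.0% ± 1.5 and 25.8% ± 7.3 (SD, n = 3), with 33.9% in mutant 2, and *Fosl1* 0.891% ± 0.28 in the mutants.

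*Atf3*, *Maff* and *Batf* encode bZIP proteins outside the Fos and Jun groups. ATF3 is a stress-induced factor that pairs with Jun proteins, and *Atf3* was at 0.28, 0.36 and 0.44 FPKM in the controls and at 1.14, 0.98 and 0.69 FPKM in the mutants. These values rest on 11, 14 and 17 counts in the controls and 44, 38 and 27 in the mutants. All mutant libraries were above all control libraries, and the log2 fold change was 1.36 (SE 0.31), or 2.57-fold.

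*Maff* encodes a small Maf protein, which has a bZIP domain and no activation domain. It was at 10.25, 8.90 and 10.75 FPKM in the controls and 11.03, 14.97 and 11.94 FPKM in the mutants. The mutant libraries were above the control libraries, mutant 1 only just, and the log2 fold change was 0.32 (SE 0.13), or 0.18 without mutant 2. *Batf*, whose protein pairs with Jun mainly in lymphocytes, had 1, 1 and 0 counts in the controls and 2, 2 and 1 in the mutants, which is under the floor of 3 counts per library in both groups, so no fold is given. *Batf* lies 209.0 kb from *Fos* on chromosome 12. No exon base of *Fos*, *Fosb*, *Fosl2*, *Atf3*, *Maff* or *Batf* overlaps another gene in GENCODE.

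**Figure D3:**
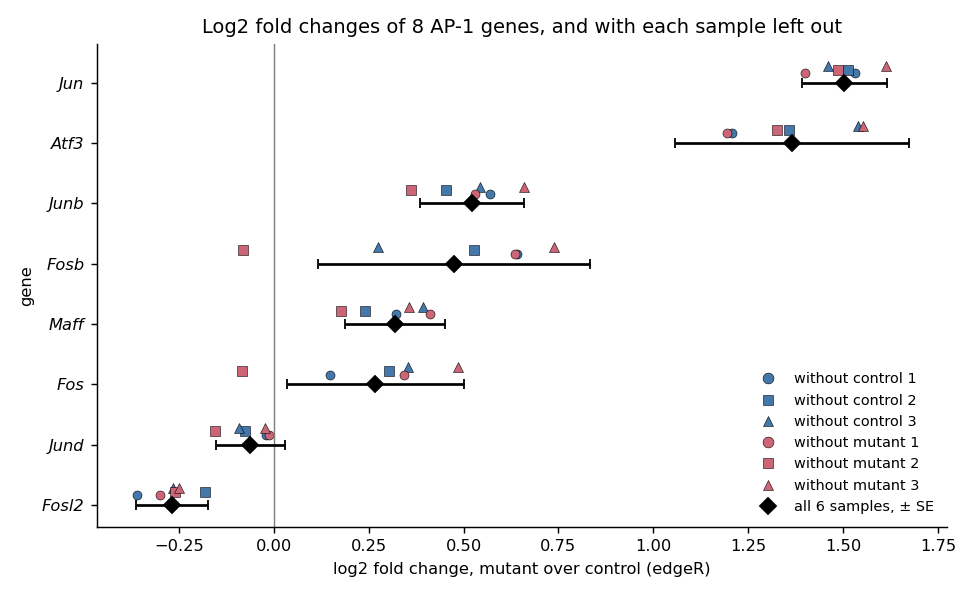
Log2 fold change, mutant over control, of 8 AP-1 genes (horizontal axis, edgeR), with diamonds and bars for all 6 libraries ± SE. The small symbols give the value with 1 library left out. For *Jun* they lie between 1.40 and 1.61, and for *Fos* and *Fosb* the value without mutant 2 lies below 0. *Fosl1* is not drawn, since it had no count in the controls and so no finite fold, and *Batf* is not drawn, since it was not tested.

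As a description of the chosen members, and not as a test of them, 4 of the 9 in the fit had an adjusted p under 0.05, all of them higher in the mutants, namely *Fosl1*, *Jun*, *Junb* and *Atf3*. *Fosl1* and *Jun*, 2 of these, lay within the stricter thresholds of the study, a fold change of 2 or more with an adjusted p no larger than 0.001. *Fosl1*, with no count in a control, had to differ in order to enter the fit at all. Over all 12667 genes tested 7.82% were higher and 5.42% lower at an adjusted p under 0.05, and 1.31% were higher and 0.0553% lower at the study's thresholds. As the members were selected on this contrast, nothing is read from these counts. *Jun* missed the stricter thresholds without control 2, and *Fosl1* missed them when any library but mutant 1 was left out. Among all 10 members, 5 had all mutant libraries above the controls, 1 had all below and 4 overlapped, where 17.5% of all genes tested had all mutant libraries above and 15.2% all below. The median log2 fold change of the tested members was 0.47, against -0.0028 over all genes.

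Mutant 2 was the highest library for 5 of the 9 tested members, *Fos*, *Fosb*, *Junb*, *Jund* and *Maff*, and for 6 of 13 tested immediate early genes outside AP-1, whereas it was highest for 10.4% of all genes tested. *Jun* and *Atf3* were highest in mutant 1, *Fosl1* in mutant 3 and *Fosl2* in control 2. *Egr1*, an immediate early transcription factor named after its values were seen, was at 9.28, 15.75 and 10.47 FPKM in the controls and at 16.45, 70.17 and 14.05 FPKM in the mutants. Its groups overlapped, with a log2 fold change of 1.51 (SE 0.543, adjusted p = 0.10, edgeR with Benjamini-Hochberg adjustment) that was 0.36 without mutant 2.

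**Figure D4:**
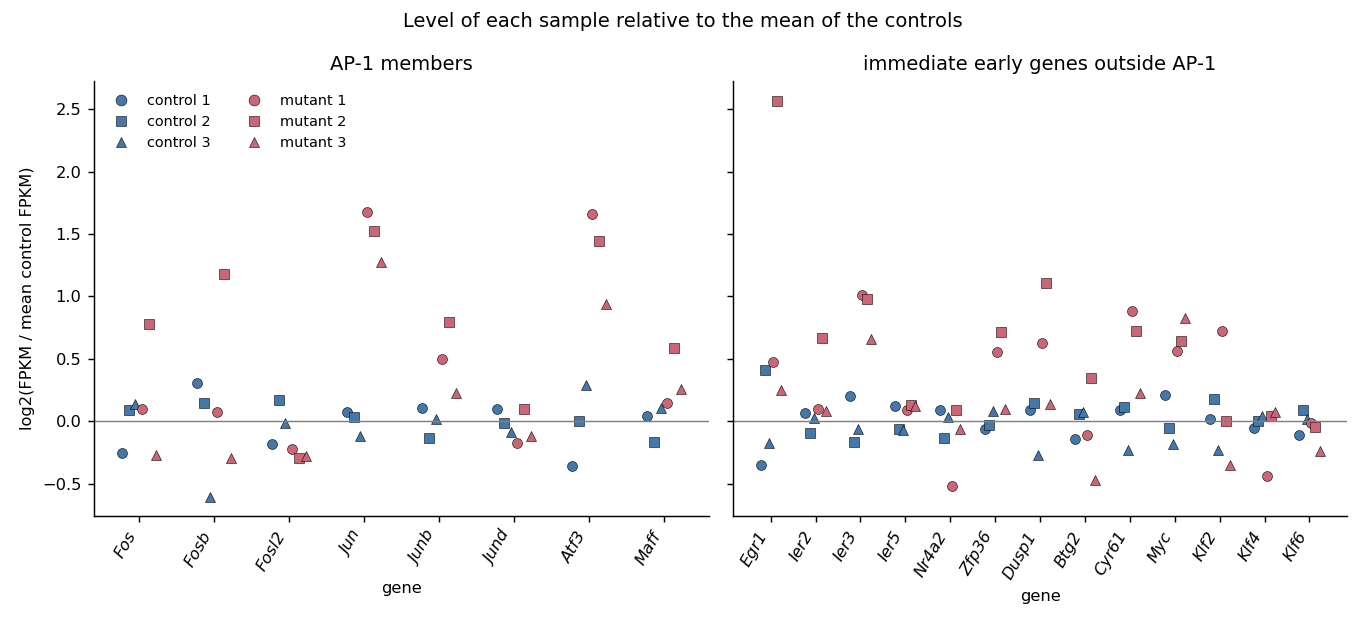
Log2 ratio of each library's FPKM to the mean of the 3 control libraries (vertical axis) for 8 AP-1 genes (left) and 13 immediate early genes outside AP-1 (right). Squares in red are mutant 2, which is the highest point for *Fos*, *Fosb*, *Junb*, *Jund*, *Maff* and *Egr1*.

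Of 16 immediate early genes outside AP-1, 13 were tested, 3 rose, none fell and 10 did not pass the test. Their median log2 fold change was 0.31. The shares to set beside this and each later list are those over all genes tested, of which 7.82% rose and 5.42% fell. *Ier3*, a survival gene, was at 81.11, 62.63 and 67.54 FPKM in the controls and 141.67, 139.17 and 111.13 FPKM in the mutants, and it rose (log2 fold change 0.89, adjusted p = 0.0017, edgeR with Benjamini-Hochberg adjustment). *Myc*, a growth-promoting transcription factor, rose by 0.68 on the log2 scale (adjusted p = 0.0029, edgeR), and *Cyr61*, a secreted matrix protein, by 0.64 (adjusted p = 0.030, edgeR). For each of these genes every mutant library was above every control library, a pattern of 17.5% of all genes tested. They were named because they passed the test, so this separation follows largely from that choice.

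The other AP-1 family genes comprised 11 bZIP partners and relatives, of which 8 were tested, 2 rose, 1 fell and 5 did not pass the test, with a median log2 fold change of 0.002. *Maf* rose from a low level, 0.05 to 0.19 FPKM in the controls and 0.32 to 0.48 FPKM in the mutants (log2 fold change 1.61, adjusted p = 0.038, edgeR with Benjamini-Hochberg adjustment). *Jdp2*, which represses AP-1 sites as a partner of Jun, fell, from 128.04, 128.37 and 141.44 FPKM to 89.11, 109.42 and 96.74 FPKM (log2 fold change -0.43, adjusted p = 0.016, edgeR). In the controls *Jdp2* was thus close in level to *Fosl2*. *Batf3* and *Mafa* had at most 3 counts in each library.

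MAFF pairs with the CNC and Bach factors, and of 6 genes for these partners 5 were tested and 0 passed the edgeR test, with 1 at an unadjusted p under 0.05. None passed under DESeq2, limma or the other alternatives either. *Nfe2l2*, the regulator of the antioxidant response, was at 49.2, 45.1 and 44.08 FPKM in the controls and 41.14, 42.5 and 46.61 FPKM in the mutants (log2 fold change -0.09, adjusted p = 0.48, edgeR), and the value for *Nfe2l1* was 0.10 (adjusted p = 0.49, edgeR). Among all 32 non-member genes with a Pfam bZIP domain, a list added after the data were seen, 24 were tested, 4 rose, 1 fell and 19 did not pass, with a median log2 fold change of 0.01. They included *Maf*, *Jdp2*, *Atf4* and *Creb5*, the last at 0.01 to 0.14 FPKM in the controls and 0.34 to 0.54 FPKM in the mutants (log2 fold change 2.67, adjusted p = 0.0096, edgeR).

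Of 18 genes for kinases and transcriptional regulators that act upstream of AP-1, all tested, 2 rose, none fell and 16 did not pass the test. Over all genes tested 7.82% rose and 5.42% fell. The median log2 fold change of the list was -0.03. *Srf*, the factor of the CArG box, was at 13.32, 11.3 and 10.72 FPKM in the controls and 14.22, 16.45 and 15.46 FPKM in the mutants (log2 fold change 0.38, adjusted p = 0.031, edgeR with Benjamini-Hochberg adjustment). *Elk3*, a partner of Srf, rose by 0.33 on the log2 scale (adjusted p = 0.041, edgeR). Neither call held in every setting, and none of the 18 genes passed without control 2, control 3, mutant 2 or mutant 3. No kinase gene of the list passed the test. AP-1 activity is set largely by phosphorylation of the proteins, which RNA does not show.

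Stress responses that induce *Atf3* were described by 2 further lists. Of 8 genes of the ATF4 response 2 rose and 6 did not pass the test, with a median log2 fold change of 0.35. *Sesn2*, a stress-induced inhibitor of growth signalling, rose by 0.65 on the log2 scale (adjusted p = 0.0057, edgeR with Benjamini-Hochberg adjustment) and *Atf4* itself by 0.43 (adjusted p = 0.027, edgeR). Of 8 heat shock genes 3 rose, 1 fell and 4 did not pass, with a median log2 fold change of 0.18. The chaperone genes *Hspa8* (log2 fold change 0.58, adjusted p = 0.0018), *Hsp90aa1* (0.44, adjusted p = 0.0027) and *Hsph1* (0.43, adjusted p = 0.026, edgeR) rose. *Hspa1b*, an inducible Hsp70 gene, fell (log2 fold change -0.41, adjusted p = 0.038, edgeR). *Hspa1a*, named here as the other inducible Hsp70 gene of the list, did not pass (log2 fold change -0.385, adjusted p = 0.10, edgeR). How reads were divided between these Hsp70 genes was not tested.

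The last list holds 19 genes that textbooks give as AP-1 targets in epithelia, of which 17 were in the table and 13 were tested. Of these 10 rose, 1 fell and 2 did not pass the test, with a median log2 fold change of 3.03, and 8 met the study's thresholds. Of these 8, 5 (*Mmp13*, *Plaur*, *Timp1*, *Ptgs2* and *Sprr1b*) were under 10 counts in each control and entered the fit through the mutants only, so they had to differ, and the list was written with earlier results of these data known. The counts and the median of this list, and the p-values of these 5 genes, are therefore a description and support nothing. With a minimum of 10 counts in every sample 6 genes of the list passed the test. *Sprr1b*, a precursor of the cornified envelope, had 0 counts in each control library and 2537 to 4880 counts in the mutant libraries, at least 1325-fold higher against 3 counts per library (adjusted p = 2.2e-05, edgeR with Benjamini-Hochberg adjustment). *Mmp13*, a collagenase, had 0, 1 and 3 counts in the controls and 648, 321 and 366 in the mutants (adjusted p = 2.4e-05, edgeR). *Plaur*, the urokinase receptor, was at 0.27, 0.1 and 0.21 FPKM in the controls and at 6.92, 4.27 and 5.59 FPKM in the mutants (log2 fold change 4.82, adjusted p = 2.6e-05, edgeR). *Ccnd1*, the cyclin that carries cells into S phase, went the other way, from 143.76, 129.79 and 112.52 FPKM to 67.63, 74.34 and 109.19 FPKM (log2 fold change -0.62, adjusted p = 0.031, edgeR). Several of these genes also answer to NF-κB or mark other differentiation programmes, and the binding of AP-1 to them was not measured in these libraries.

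**Figure D5:**
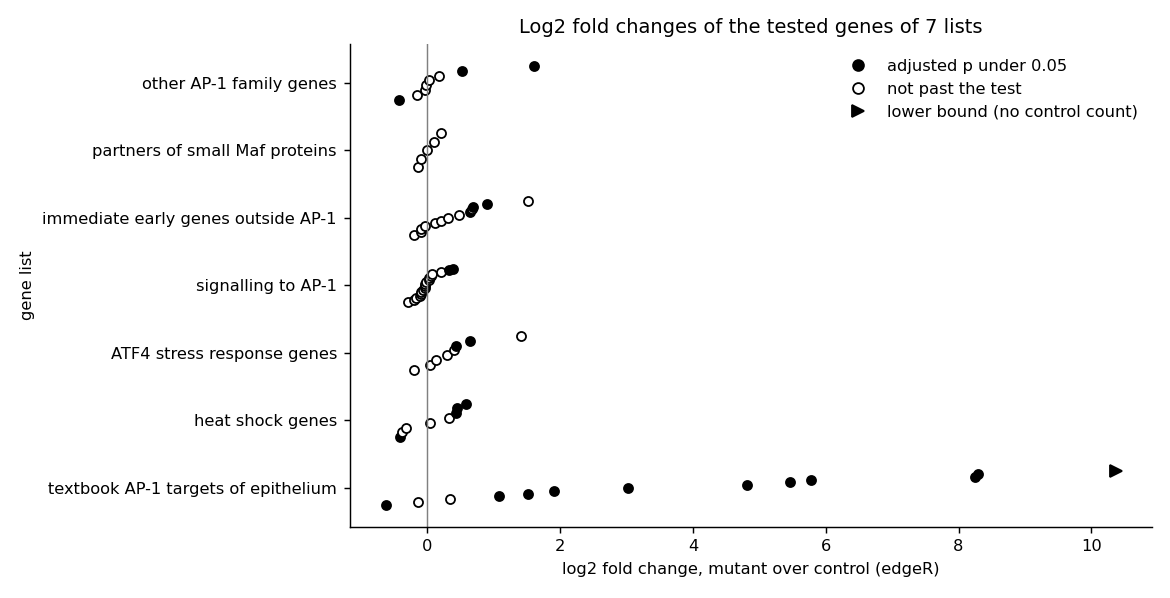
Log2 fold change, mutant over control (horizontal axis, edgeR), of the tested genes of 7 lists (vertical axis). Filled symbols passed the test and open ones did not, and the triangle is the lower bound of *Sprr1b*, which had no count in the controls. The 13 tested AP-1 targets reach furthest to the right, and the 18 signalling genes lie close to 0.

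The genes whose pattern over the 6 libraries was nearest to that of 3 members were sought. The measure was the root mean square difference of log2 CPM, centred on the control mean. Such genes are picked for their likeness over these same libraries, so a shared order of libraries follows from the search. For *Jun* these were *Ppm1j*, at a difference of 0.0795, *Ifngr1*, at 0.0889, and *Il13ra1*, at 0.113. *Ifngr1*, a chain of the interferon gamma receptor, was at 31.56, 31.72 and 32.81 FPKM in the controls and at 108.46, 87.43 and 78.73 FPKM in the mutants, in the same order of mutant libraries as *Jun*. For *Fos* they were *A230050P20Rik* (0.0973), *Slc1a7* (0.118) and *Csrnp1* (0.145). *A230050P20Rik* and *Slc1a7* were low, at 0.18 to 0.4 and 0.24 to 0.6 FPKM over the 6 libraries. *Csrnp1* was at 7.28, 8.74 and 7.85 FPKM in the controls and at 7.6, 12.13 and 7.0 FPKM in the mutants, with mutant 2 again highest and mutant 3 lowest. For *Atf3* the nearest genes were *Cyp4a10* (0.0942), *Gch1* (0.166) and *BC100530* (0.167).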

How the data were processed

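Reads of corneal epithelial RNA were processed by the authors, who depleted rRNA, read 50 bases from 1 end of each fragment, aligned the reads with Bowtie2 2.2.5 and ran RSEM 1.2.12. The deposited expected counts of RSEM are estimated counts per gene and sample, not normalized, and 31.5% to 32.2% of them are not whole. The deposited FPKM values are scaled by the authors for transcript length and library total. Columns of the authors' own DEGseq comparison hold fold changes, p-values and q-values and were not used. The labels name a different library kit and mm9, whereas the coordinates in the table are those of GRCm38.

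Expected counts were rounded and fitted with edgeR 4.0.16 in R 4.3.3 (TMM, filterByExpr at its defaults of 10 counts and 15 in total, quasi-likelihood test, genotype only). P-values were adjusted by Benjamini-Hochberg over all 12667 genes tested. A gene passed the test at an adjusted p under 0.05, and rose or fell only then. Each standard error is the size of the log2 change divided by the root of F. The edgeR fit was tested on simulated data for this comparison, with 12667 genes. It recovered 95% of 100 genes changed 2-fold and 99% of 100 changed 4-fold, with 9 false calls in all. The changed genes were drawn only from genes with higher mean counts than *Atf3* or *Fosl1*, so these shares do not cover such low genes. DESeq2 1.42.0, limma 3.58.1 on log2(FPKM + 1) and log2(FPKM + 0.1), other filters and scaling, a replicate block and each library left out were alternatives. Whether a library stands for 1 mouse is not stated, so p-values measure the spread between libraries.

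The members, the gene lists and the rule for named genes were chosen with earlier results of these data known. Named genes were the members, up to 3 genes per list and direction with the smallest adjusted p, the 2 most abundant genes of a list with none, *Rela*, genes that overlap a member, and the 3 nearest patterns of *Fos*, *Jun* and *Atf3*. Gene identifiers matched RefSeq of GRCm38.p6 for 17434 of 17554 genes. Overlaps were counted in GENCODE M21. The result of 1 gene that this rule would name is not reported here.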

Additional observations from a re-analysis of the deposited data

How the results depend on the processing

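The log2 fold changes of *Fosl2*, *Jun*, *Junb*, *Jund* and *Maff* kept their sign under every alternative run. Without mutant 2, those of *Junb*, *Jund* and *Maff* moved by more than their SE, to 0.362, -0.154 and 0.176. *Fos* and *Fosb* changed sign without mutant 2, to -0.083 and -0.082, with ranges up to 0.486 and 0.737 when 1 library was left out. That of *Atf3* was 0.505 with limma on log2(FPKM + 1), a scale that shrinks low genes. Over all genes 173 met the study's thresholds, 330 with DESeq2, 114 with limma on log2(FPKM + 1) and 36 to 193 with 1 library left out (36 without control 2, 56 without control 3, 88 without control 1), and 857 to 1869 passed the test with 1 left out (857 without control 2, 999 without control 3), against 1678. Of the 2 members at these thresholds, 1 was left with a minimum of 10 counts in every sample, where *Fosl1* was not tested, and 1 under the replicate block, and 0 to 2 with 1 library left out. *Fosl1* missed them without any 1 of the libraries other than mutant 1, and *Jun* without control 2. At the study's thresholds 0 genes remained called in the lists of other AP-1 genes, immediate early genes, signalling, ATF4 response, heat shock and Pfam bZIP genes. With 1 library left out, the genes past the test were 1 to 3 of the other AP-1 genes (1 without control 3), 2 to 6 immediate early genes (6 without mutant 3), 0 to 3 signalling genes (0 without control 2, control 3, mutant 2 or mutant 3, and 1 without control 1), 1 to 2 ATF4 genes (1 without control 2 or mutant 2), 2 to 4 heat shock genes (2 without control 2 or control 3), 9 to 13 AP-1 targets and 2 to 5 Pfam bZIP genes (2 without control 2, 3 without control 3 or mutant 2). No filter gave 5 immediate early genes, both limma fits and upper-quartile scaling 1 signalling gene each, and a minimum of 10 counts in every sample, which tests fewer genes, 6 AP-1 targets and 3 Pfam bZIP genes. Same-numbered samples correlated at 0.056, 0.055 and -0.035 in their deviations from the group means. These values show no strong pairing by number, and with 3 libraries a group they cannot exclude a weaker one. With the replicate block 1419 genes passed the test, with 5 immediate early, 0 signalling and 1 ATF4 genes. The causes of these shifts were not tested where none is named. Counts limit *Atf3*, *Fosl1* and *Batf*, and 3 libraries a group limit all values.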
